A study of Arabidopsis thaliana with 48 samples.

Results

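AT4G21870 and AT5G51440 are small heat shock protein genes of Arabidopsis thaliana whose transcripts moved in opposite directions in roots placed on ACC. They are 2 of the 13280 genes that had a probe set of their own on the array, and each was measured by 1 probe set annotated to it alone, 254384_at for AT4G21870 and 248434_at for AT5G51440. Both were chosen by these same ACC and control values, so their levels and differences are given as a description, with no test. Roots came from seedlings 6 days old, grown on a nylon screen in continuous light and then moved to new medium that held either no ACC (control) or 1 µM ACC (1-aminocyclopropane-1-carboxylic acid, which plants convert to the hormone ethylene). The labels name no mutant, ecotype or transgene. Roots were taken less than 5 min after the move (0 h) and at 0.5, 1, 2, 4, 8, 12 and 24 h, with 3 arrays in each of the 16 groups that medium and time form.

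Small heat shock proteins are chaperones of the alpha-crystallin family. They bind proteins that have begun to unfold, without using ATP, and hold them in a state from which the larger ATP-driven chaperones of the HSP70 and HSP101 families can refold them. Plants have an unusually large set, with members in the cytosol, nucleus, endoplasmic reticulum, plastids, peroxisomes and mitochondria, and many are strongly induced by heat. AT5G51440 encodes a mitochondrial member. AT4G21870 encodes a small member of the family that lacks an organelle targeting sequence and is placed in the cytosol and nucleus.

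Values are log2 signals as deposited, the mean of each group is over 3 arrays, and a difference is ACC minus control with its standard error (SE) from 1 linear model over all 48 arrays. The arrays had nearly the same mean, their medians lay between 7.43 and 7.64, and the number of arrays limits the precision. The mean correlation of an array with the others of its group had a median of 0.983 and a lowest value of 0.957. By limma's array weights, 4 arrays stood apart with a weight under 0.4, namely replicate 3 of ACC at 0.5 h, of control at 12 h, of control at 0 h and of ACC at 2 h. Replicate 3 of ACC at 1 h is called ACC in its title and description and auxin in its source name and agent. Of the root markers, 3 of 9 were measured, and PYK10, a beta-glucosidase abundant in roots, had group means from 13.95 to 14.42, and neither it, EXPA7 nor AT3G46280 was called between the media at any time. Without being called, EXPA7 differed by -1.02 at 0.5 h and 0.96 at 4 h, and AT3G46280 by 0.95 at 1 h. Of 10 green shoot markers, 1 was measured, RCA (Rubisco activase), with group means from 7.57 to 8.90. RCA was higher on ACC by 1.32 at 12 h (limma, adjusted p = 0.00285) and differed by 0.50, 0.91 and 0.45 at 4, 8 and 24 h without being called, within the period in which both chosen genes differed, and its part in their differences was not tested. In whole roots, fewer cells of a type and less RNA per cell cannot be told apart.

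AT4G21870 was higher on ACC from 0.5 h onward, while AT5G51440 overlapped between the media until 2 h and was lower on ACC from 4 h onward. Over the 7 times after the move, the mean difference of AT4G21870 was 1.99 on the log2 scale and that of AT5G51440 was -1.09. All 3 ACC arrays lay above all 3 control arrays at 6 of 7 times for AT4G21870, and all 3 lay below them at 4 of 7 times for AT5G51440. The plot of the log2 signal on every array shows this separation for each gene.

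**Figure D1:**
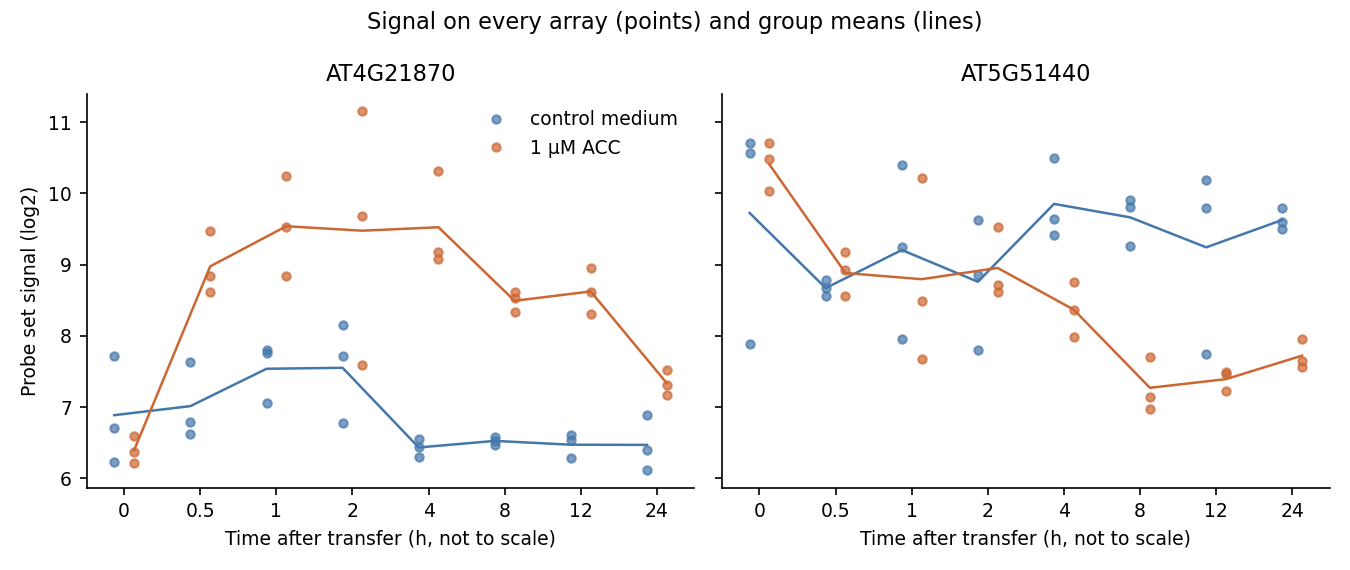
Log2 signal (vertical axis) of AT4G21870 and AT5G51440 on each of the 48 arrays against time after transfer in h (horizontal axis, not to scale), for control medium and 1 µM ACC, with 3 arrays per group and the group means joined by lines. The ACC arrays of AT4G21870 lie above the control arrays at every time after transfer except 2 h, where they overlap, and those of AT5G51440 lie below the control arrays from 4 h.

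Just after the move AT4G21870 was near its lowest level on both media. At 0 h its log2 signals were 6.23, 6.71 and 7.72 in control roots and 6.37, 6.60 and 6.21 in roots on ACC. The groups overlapped, and the difference was -0.49 ± 0.48 (SE). The control value of 7.72 was that of the array that stood apart at this time, and without it the 5 remaining arrays ran from 6.21 to 6.71.

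By 0.5 h the transcript was at a higher level on ACC than on control medium. Control arrays read 6.63, 6.78 and 7.63, and ACC arrays read 9.47, 8.62 and 8.83. The difference was 1.96 ± 0.48 (SE), a 3.89-fold higher level, and the lowest ACC array lay 0.99 above the highest control array. At this time 4.98% of all probe sets had 3 ACC arrays above 3 control arrays, and since AT4G21870 was chosen by these values the share is given as background.

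At 1 h the control arrays stood at 7.05, 7.80 and 7.76 and the ACC arrays at 8.84, 10.24 and 9.53. The ACC arrays were again all above the controls, as were those of 5.98% of probe sets, and the difference was 2.00 ± 0.48 (SE), or 4.00-fold. Leaving out the array whose labels disagree gave a difference of 2.00 as well.

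The widest spread of AT4G21870 came at 2 h. Control arrays gave 6.78, 8.15 and 7.72, whereas ACC arrays gave 9.68, 11.15 and 7.60. The third ACC array, 1 of the 4 that stood apart, lay within the control range, so the groups overlapped here, at a time when 5.09% of probe sets had all ACC arrays above. The difference was 1.92 ± 0.48 (SE), without that array it was 2.86, and without the second ACC array, the highest, it was 1.09. The SE is pooled over all groups and so is the same at every time. The SDs of the groups at 2 h were 1.79 on ACC and 0.70 on control medium.

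With all arrays, AT4G21870 differed most between the media at 4 h, whereas without replicate 3 of every group the difference was 2.95 at 2 h and 2.70 at 4 h. The control arrays lay close together at 6.30, 6.55 and 6.44, and the ACC arrays were at 9.08, 9.18 and 10.31. That difference of 3.09 ± 0.48 (SE) is an 8.52-fold higher level on ACC, with 2.52 between the nearest arrays of the media, at a time when 9.21% of probe sets had 3 ACC arrays above 3 controls.

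At the last 3 times the difference was smaller than at 4 h, similar at 8 h and 12 h and smallest at 24 h. Control arrays at 8 h were 6.52, 6.58 and 6.47 against 8.34, 8.53 and 8.61 on ACC, a difference of 1.97 ± 0.48 (SE). Control arrays at 12 h were 6.28, 6.53 and 6.60 against 8.61, 8.95 and 8.30 on ACC, a difference of 2.15 ± 0.48 (SE). The nearest arrays of the media were 1.75 apart at 8 h and 1.70 apart at 12 h. By 24 h the ACC arrays had come down to 7.31, 7.17 and 7.52, still above the controls at 6.12, 6.88 and 6.40, and the difference was 0.87 ± 0.48 (SE), or 1.82-fold. The share of probe sets with 3 ACC arrays above 3 controls was 11.6% at 8 h, 11.8% at 12 h and 9.75% at 24 h.

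AT5G51440, the mitochondrial member, began at a high level on both media. At 0 h its control arrays gave 10.57, 10.71 and 7.89 and its ACC arrays 10.03, 10.47 and 10.71. The groups overlapped and differed by 0.68 ± 0.60 (SE). The low control value belonged to the array that stood apart, and without it the difference was -0.24.

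Until 2 h AT5G51440 was not separated by medium. The control arrays read 8.78, 8.55 and 8.67 at 0.5 h, beside 8.92, 8.55 and 9.17 on ACC. At 1 h the control arrays read 10.40, 7.96 and 9.25, beside 10.22, 8.48 and 7.68 on ACC. At 2 h they read 9.62, 8.86 and 7.80, beside 9.53, 8.62 and 8.71 on ACC. The groups overlapped at all 3 times, with differences of 0.21, -0.41 and 0.19 and an SE of 0.60 each. At 1 h, the array whose labels disagree was the lowest on ACC, and without it the difference was 0.15. The 1 h value turned on single arrays, since it was -1.12 without replicate 1 on ACC, -1.03 without replicate 2 on control medium and 0.19 without replicate 1 on control medium.

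From 4 h the media separated. The control arrays at 4 h were 10.49, 9.64 and 9.42 and the ACC arrays 7.99, 8.75 and 8.36. Every ACC array lay below every control array, as for 10.3% of probe sets, and the difference was -1.49 ± 0.60 (SE), a 2.80-fold lower level on ACC.

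The lowest levels of AT5G51440 were reached at 8 h and 12 h on ACC. At 8 h the ACC arrays were 7.70, 7.15 and 6.97 against 9.91, 9.81 and 9.26 on control medium, a difference of -2.39 ± 0.60 (SE), or 5.25-fold. At 12 h the ACC arrays were 7.22, 7.46 and 7.49 against 9.79, 10.19 and 7.75, a difference of -1.85 ± 0.60 (SE), or 3.60-fold. The third control array at 12 h, which stood apart, lay 0.25 above the highest ACC array, and without it the difference was -2.60. All ACC arrays lay below all controls for 13% of probe sets at 8 h and 12.4% at 12 h.

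At 24 h the lower level persisted. The ACC arrays were 7.96, 7.64 and 7.56, and the control arrays 9.50, 9.59 and 9.79. The difference was -1.90 ± 0.60 (SE), or 3.74-fold, with 1.54 between the nearest arrays of the media, and 12.3% of probe sets had all ACC arrays below. Between 8 h and 24 h the difference of AT4G21870 went from 1.97 to 0.87 and that of AT5G51440 from -2.39 to -1.90.

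**Figure D2:**
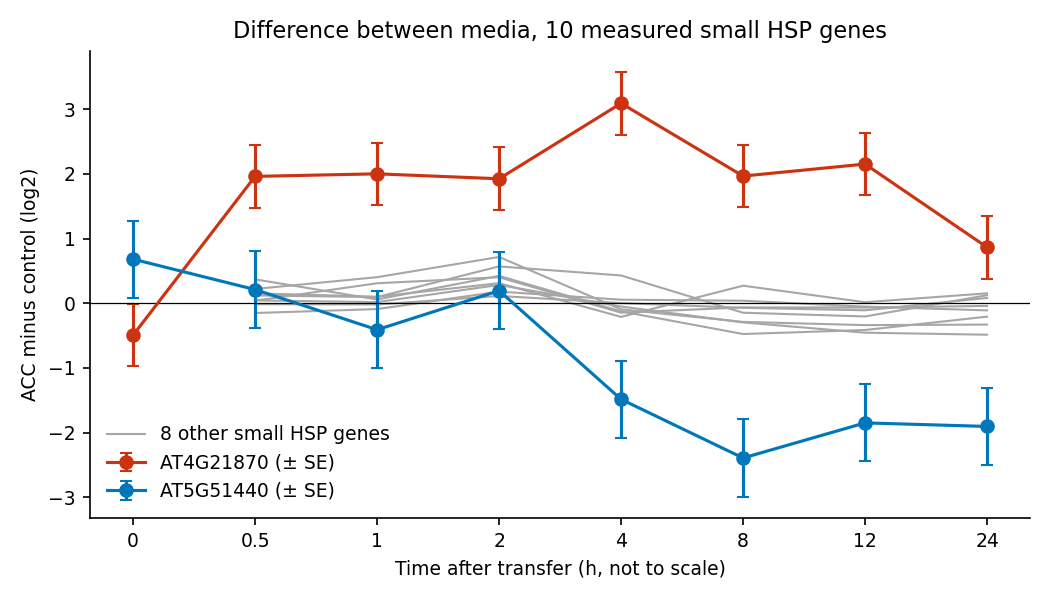
ACC minus control difference on the log2 scale (vertical axis) against time after transfer in h (horizontal axis, not to scale) for AT4G21870 and AT5G51440, with bars of ± 1 SE, and for the 8 other small heat shock protein genes with a probe set of their own as grey lines from 0.5 h. AT4G21870 peaks at 3.09 at 4 h and AT5G51440 reaches its lowest point of -2.39 at 8 h, while the grey lines stay between -0.49 and 0.72.

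Set against 0 h on the same medium, AT5G51440 was at a lower level before the media parted. At 0.5 h its mean was -1.05 from 0 h on control medium and -1.52 on ACC, and without the 4 arrays that stood apart the control value was -1.97. At 4, 8, 12 and 24 h on control medium it was 0.13, -0.06, -0.48 and -0.10 from its 0 h mean (-0.79, -0.98, -0.65 and -1.02 without the 4 arrays). On ACC the same times lay at -2.04, -3.14, -3.01 and -2.68, the second of these an 8.79-fold lower level than at 0 h. Whether control roots were back at their first level thus turned on the control array at 0 h that read 7.89.

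On control medium AT4G21870 stayed nearer to its 0 h level than on ACC. Its control mean stood 0.65 and 0.66 above 0 h at 1 h and 2 h, and 0.36 to 0.45 below it from 4 h onward. Without the 4 arrays these early control values were 1.07 and 1.08, and the later control means were within 0.06 of 0 h. On ACC the change from 0 h was 2.58 at 0.5 h, between 3.08 and 3.15 from 1 to 4 h, 2.10 at 8 h, 2.23 at 12 h and 0.94 at 24 h. Without the 4 arrays the 2 h value was 4.02, above the values at 1 h and 4 h. Among all 22739 probe sets tested, 0% were called higher and 0% lower in control roots at any time against 0 h (limma, adjusted p under 0.05), while 2613 had an unadjusted p under 0.05 at 1 time or more and 4 were called with array weights.

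**Figure D3:**
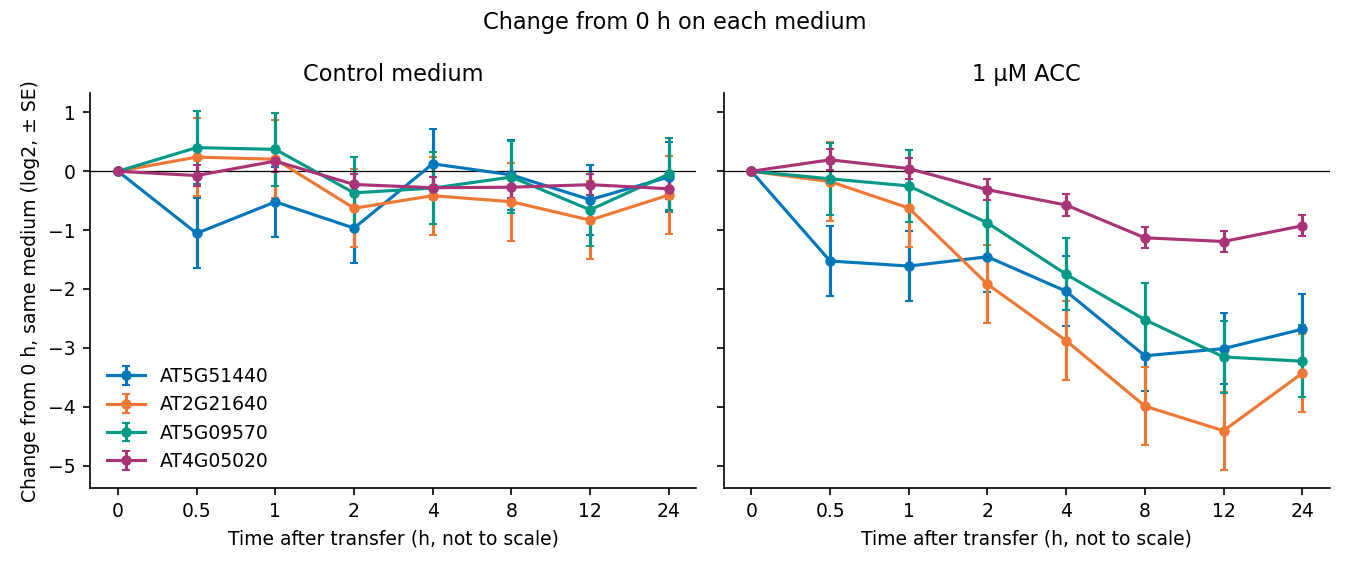
Mean change in log2 signal from 0 h on the same medium (vertical axis, ± SE) against time after transfer in h (horizontal axis, not to scale). Control medium and 1 µM ACC have separate panels. The genes are AT5G51440 and, from the mitochondrial stress response described below, AT2G21640, AT5G09570 and NDB2 (AT4G05020). AT5G51440 is lower at 0.5 h on both media, and has its own lowest point on ACC at 8 h, at -3.14.

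Both genes varied more between replicates than most transcripts. The residual SD of AT4G21870 was 0.626, larger than that of 98.3% of probe sets, and its group SDs ran from 0.058 to 1.79. That of AT5G51440 was 0.773, larger than that of 99.3% of probe sets, with group SDs from 0.114 to 1.59. The largest group SD of AT4G21870 was at 2 h on ACC and that of AT5G51440 at 0 h on control medium, and both of these groups held an array that stood apart.

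The array carries probe sets at the 3' and 5' ends of actin, GAPDH and ubiquitin transcripts, and their difference measures how evenly a transcript was copied and how intact the RNA was. Over the 48 arrays, the deviation of AT5G51440 from its group mean went with that of the actin 3' minus 5' signal, with Pearson's r = 0.665 (permutation p = 0.00017, 0.00119 after Benjamini-Hochberg adjustment over 7 relations) and Spearman's rho = 0.606 (permutation p = 0.00041, adjusted 0.00287). Without the 2 arrays farthest in actin r was 0.642. The permutations in this paragraph treated the arrays of a group as independent. The actin deviation was mostly positive in replicate 1 and mostly negative in replicate 3. That of AT5G51440 was mostly positive in replicate 1 and more often negative than positive in replicate 3. Over all probe sets, deviations of same-numbered arrays of the 2 media had a median r of 0.131, against -0.097 for other numbers. If arrays of the same number share a source, the permutation p-values are too small. The relation with actin cannot be told apart from a difference between replicate numbers, and a shared source was not tested. The ubiquitin measure gave r = 0.481 with AT5G51440 (permutation p = 0.029, adjusted 0.101; 0.308 without the 2 farthest arrays; rho = 0.420, permutation p = 0.020, adjusted 0.0678), and GAPDH gave r = 0.084 (permutation p = 0.53, adjusted 0.742; rho = 0.046, permutation p = 0.77, adjusted 0.770), so neither passed the threshold. The actin measure differed between the media by 0.26, 0.08, 0.01 and 0.14 at 4, 8, 12 and 24 h, and with it as a covariate the differences of AT5G51440 at these times were -2.12, -2.57, -1.88 and -2.25. At 0, 0.5, 1 and 2 h the same covariate gave 1.41, 0.77, -0.89 and -0.25, in place of 0.68, 0.21, -0.41 and 0.19. For AT4G21870 the correlation with the actin measure was -0.166 (permutation p = 0.51, adjusted 0.742; rho = -0.298, permutation p = 0.094, adjusted 0.165), with GAPDH 0.176 (permutation p = 0.65, adjusted 0.757) and with ubiquitin -0.063 (permutation p = 0.81, adjusted 0.810). The GAPDH measure was higher on ACC by 0.11 to 0.50 at the 7 times after the move, and with it as a covariate the difference of AT4G21870 at 24 h was 0.60 and that of AT5G51440 was -2.06. Array by array, the deviations of the 2 genes from their group means had r = -0.356 (permutation p = 0.043, adjusted 0.101) and rho = -0.393 (permutation p = 0.029, adjusted 0.0678), which did not pass the threshold after adjustment. Both genes were chosen as opposite on these same arrays, and the permutation tests of this paragraph were not planned.

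**Figure D4:**
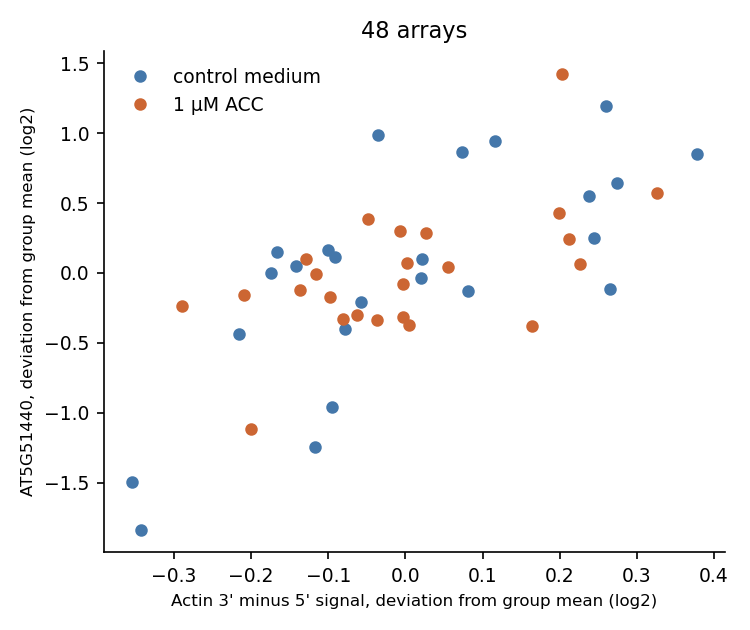
Deviation of the AT5G51440 log2 signal from its group mean (vertical axis) against the deviation of the actin 3' minus 5' log2 signal from its group mean (horizontal axis), with 1 point for each of the 48 arrays coloured by medium. Arrays with a higher actin measure tend to have a higher AT5G51440 signal on both media (r = 0.665).

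In the fit over all arrays, none of the other measured small heat shock protein genes passed the test between the media. Of 19 genes in the family list, 10 had a probe set of their own, and of the 8 besides the chosen ones 0 were called higher and 0 lower on ACC at any time (limma, adjusted p), against 5.11% of all probe sets called higher and 5.26% called lower. At an unadjusted p under 0.05, 4 of the 8 differed at 1 time or more, beside 44.8% of all probe sets. At 2 h their median difference was 0.36, beside 0.00 over all probe sets, and from 4 h to 24 h it lay between -0.07 and -0.16.

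AT1G52560 encodes another family member of the mitochondria. Its mean was 5.63 on ACC and 6.12 on control medium at 24 h, a difference of -0.49 ± 0.15 (SE) that missed the threshold (limma, adjusted p = 0.0522), and at 12 h the difference was -0.46 (adjusted p = 0.0766). Until 4 h it was between -0.05 and 0.28. This gene lay at the threshold, and at 24 h it was called lower with the replicate block (adjusted p = 0.0217), with array weights (0.0464), with the actin covariate (0.0172), without the arrays that stood apart (0.0423) and without the array whose labels disagree (0.0442). AT2G29500 was called lower with array weights at 12 h and in a fit per time at 8 h, and AT5G37670 higher with array weights at 8 h. The largest difference of any of the 8 was that of AT2G19310, a cytosolic member, at 0.72 ± 0.33 (SE) at 2 h (adjusted p = 0.578). The cytosolic class genes AT1G53540 and AT2G29500 had their largest differences at 2 h (0.57) and 8 h (-0.48), and AT1G54050 had one of 0.40 at 2 h. For AT4G10250 (ATHSP22.0), of the endoplasmic reticulum, it was 0.11, for the peroxisomal AT5G37670 it was 0.31, and for AT5G54660 it was 0.18, none of them called with all arrays weighted equally.

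The larger chaperones and their co-factors were followed through few genes. One listed gene, AT3G07090, was kept as listed, and its link to these chaperones was not checked. Of 50 listed genes for heat shock factors, HSP101, HSP90, HSP70 and their co-factors, 7 had a probe set of their own, namely Hop1, Hop2, Hop3, Hsp70-2, AT3G09440, AT5G48570 and AT3G07090, so no heat shock factor, HSP101 or HSP90 gene was tested. Among the 7, 0 were called higher and 0 lower on ACC at any time, beside 5.11% and 5.26% of all probe sets, and 5 had an unadjusted p under 0.05 at 1 time or more, beside 44.8%. The HSP70 gene AT3G09440 had means of 11.75 on ACC and 10.86 on control medium at 2 h, a difference of 0.89 ± 0.24 (SE; limma, adjusted p = 0.0906). With the replicate block it was called higher at 2 h (adjusted p = 0.0239), as it was with array weights (0.00507) and without the arrays that stood apart (0.00414). At the same time Hop3 (AT4G12400), which joins HSP70 to HSP90, differed by 0.76, and AT5G48570, an FK506-binding co-chaperone, by 0.93, neither called. In the list of mitochondrial chaperones and proteases, 5 of 25 genes were measured. Whether AT3G27930 encodes either kind of protein was not checked. Of the 4 besides AT5G51440, which were AT1G52560, AT1G23100, AT3G27930 and NCLPP7 (AT5G23140, a Clp protease subunit), 0 were called higher and 0 lower, beside 5.11% and 5.26% of all probe sets, and 2 had an unadjusted p under 0.05, beside 44.8%.

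AT5G51440 also belongs to the genes that plants raise when mitochondrial respiration is disturbed, a response in which a signal from the organelle changes transcription in the nucleus. Of 30 listed genes of this mitochondrial stress response, 13 had a probe set of their own. Of the 12 besides AT5G51440, 5 were called lower and 1 higher on ACC at some time while 6 were not called. Among all probe sets, 5.26% were called lower and 5.11% higher at some time. The gene list was drawn up with earlier results of these data known, so its count is not independent evidence of a direction. By time, 2 of the 12 were called lower at 4 h, 3 at 8 h, 4 at 12 h and 3 at 24 h, where 2.12%, 2.48%, 2.53% and 3.22% of all probe sets were. The median difference of the 12 was -1.25 at 8 h, beside 0.00 over all probe sets.

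AT2G41730, whose probe set is of the kind that may also detect related transcripts, had the largest fall. At 8 h its mean was 7.37 on ACC and 11.42 on control medium, a difference of -4.05 ± 0.88 (SE; limma, adjusted p = 0.00328). AT2G21640, a gene known to rise under oxidative stress, was lower by 3.12 at 8 h and had means of 6.66 on ACC and 9.88 on control medium at 12 h, a difference of -3.22 ± 0.67 (SE; adjusted p = 0.00186). AT5G09570, which encodes a small cysteine-rich mitochondrial protein, differed most at 24 h, by -2.75 ± 0.61 (SE; adjusted p = 0.00423).

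Smaller or shorter falls were seen in the other called genes. NDB2 (AT4G05020), an NAD(P)H dehydrogenase on the outer face of the inner mitochondrial membrane, was lower by 1.01 ± 0.18 (SE) at 12 h (limma, adjusted p = 0.000361). AT5G43450, of the 2-oxoglutarate-dependent dioxygenase family, was lower by 2.18 ± 0.64 (SE) at 4 h (adjusted p = 0.0437). The gene that rose was AT5G39670, which encodes a calcium-binding EF-hand protein, with a difference of 1.88 ± 0.48 (SE) at 24 h (adjusted p = 0.0148). Each of these 6 calls was lost when replicate 1 was left out of every group (adjusted p from 0.0645 for AT5G09570 to 0.565 for AT5G43450) and when replicate 2 was (from 0.0819 for NDB2 to 0.195 for AT2G21640). With the 0 h difference subtracted, the calls of AT5G09570 (0.0518), AT5G39670 (0.0775) and AT5G43450 (0.150) were lost. That of AT5G39670 was also lost with the GAPDH covariate (0.136), and that of AT5G43450 with an intensity trend and robust prior (0.0550).

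At 0.5 h, when AT5G51440 was -1.05 from 0 h on control medium and -1.52 on ACC (SE 0.60 each), the called genes of this list were nearer to their 0 h means. At that time AT2G21640 was 0.24 above its 0 h mean on control medium and -0.17 from it on ACC, and AT5G09570 was at 0.40 and -0.13. NDB2 was at -0.07 and 0.19. AT2G41730 was at 0.06 on control medium and -1.09 on ACC, AT5G43450 at -0.08 and -0.63, and AT5G39670 at 0.12 and 1.42. The difference between AT5G51440 and these genes at 0.5 h was not tested.

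**Figure D5:**
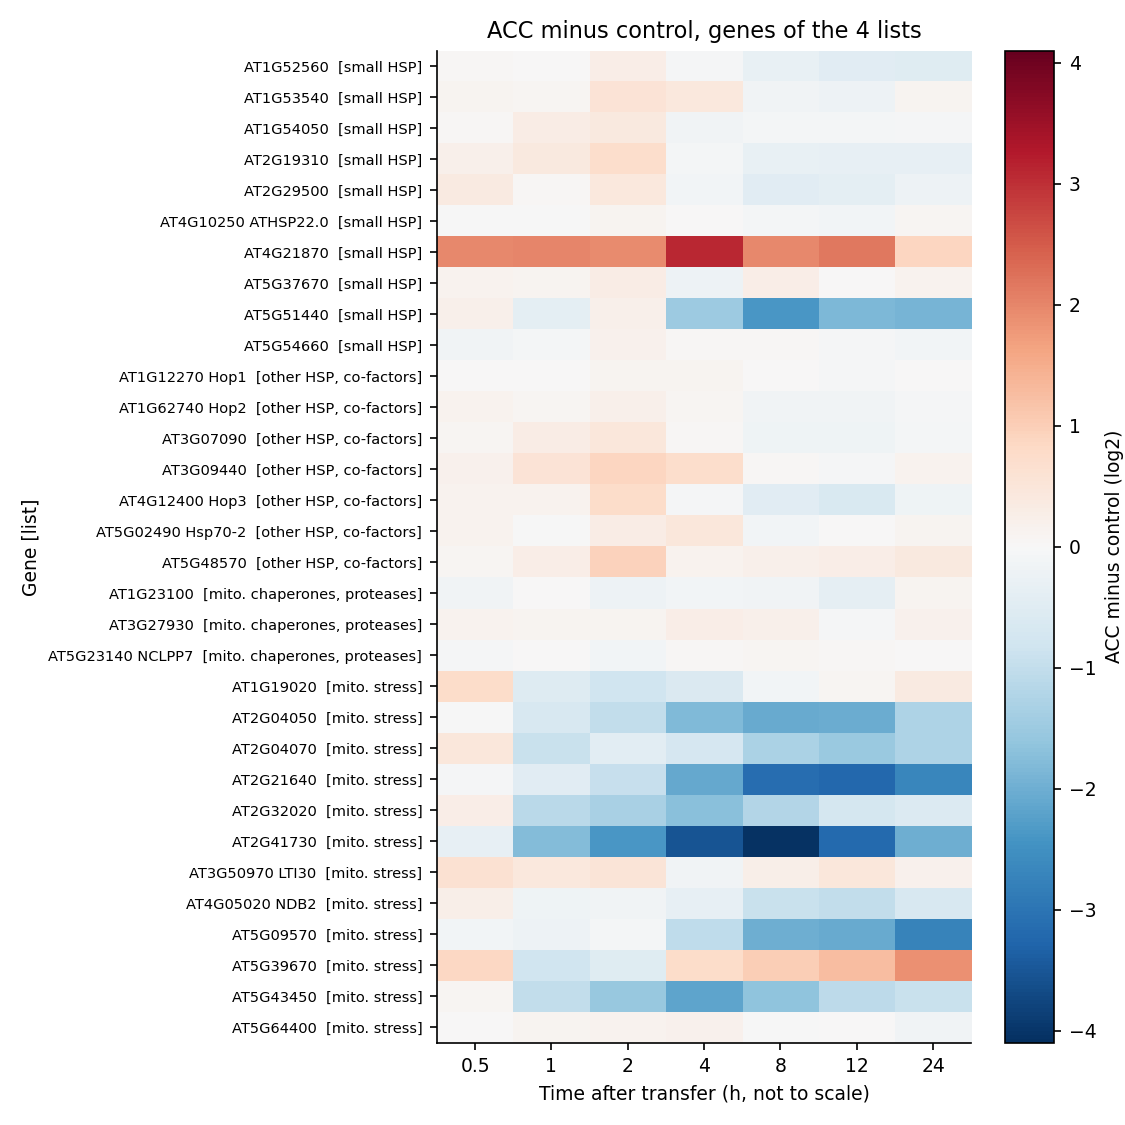
ACC minus control difference on the log2 scale (colour) at each time after transfer in h (columns) for the measured genes of the 4 lists (rows), each gene shown under the first list that holds it. AT4G21870 stays positive from 0.5 h, AT5G51440 lies between -2.39 and -1.49 from 4 h, and the mitochondrial stress response genes hold the largest negative values, down to -4.05 for AT2G41730.

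Genes whose 16 group means ran most like those of each chosen gene were looked for among 996 probe sets annotated to 1 gene with an SD of group means of at least 0.3. For AT4G21870 the highest Pearson correlations were those of AT3G13760 (0.966), PSY1R (AT1G72300, a receptor kinase for a sulphated peptide, 0.963), AT5G43910 (0.954), AT2G29995 (0.951) and MAP1B (AT3G25740, a methionine aminopeptidase, 0.950). All 5 differed most between the media at 4 h, with ACC higher by 1.39, 1.01, 0.98, 1.10 and 0.87 in the same order. For AT5G51440 they were those of AT5G47530 (0.934), AT5G37980 (0.918), AT1G49450 (0.917), AT2G44300 (0.911) and AT1G55240 (0.904). These 5 were lower on ACC, by at most 1.66, reached by AT1G55240 at 24 h. Both sets were picked by likeness over these same means, so their directions and times of largest difference largely follow from that choice. The 2 chosen genes correlated with each other at -0.574 over the 16 group means, at -0.665 over the 8 control means and at -0.296 over the 8 ACC means. These correlations describe means from the same 48 arrays, on which the genes share every library, and none was tested.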

How the data were processed

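The members and gene lists were chosen with earlier results of these data known. The authors deposited 1 table of log2 signals per probe set, 1 column per array. The base of the logarithm is inferred from the range of the values, the probe summary is not given in the sources used here, and nor is the normalization. Per the labels' protocols, about 5 µg of root RNA per sample was labelled from the 3' end. The arrays share a mean, so differences are relative to the average probe set. Of 22810 probe sets, 64 controls and 7 with a 0 were left out, leaving 22739. The platform annotation gave 13513 probe sets 1 gene symbol, 503 several and left 8730 unnamed, and 13436 received an AGI code through RefSeq's TAIR10.1 gene table. No coordinates or sequences were analysed here.

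With limma 3.58.1 in R 4.3.3, 1 mean per group was fitted over 48 arrays (32 residual degrees of freedom), followed by empirical Bayes moderation and Benjamini-Hochberg adjustment per contrast at a threshold of 0.05. The steps were tested on simulated data. Labels number the replicates without naming separate cultures, so p-values measure the spread between samples, which may be technical. Named were both genes, every measured family member, up to 5 called members of each other list, and the 5 genes most like each. Named after their values were seen were the 7 genes measured from the list of larger chaperones and co-factors and 3 members of the mitochondrial chaperone list. So were AT5G39670 as the 1 call that rose, PYK10, EXPA7, AT3G46280 and RCA.

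Alternatives were array weights, a replicate block, a fit per time, quantile normalization, a filter on dim probe sets, a robust prior with an intensity trend, subtraction of the 0 h difference, a GAPDH covariate, and leaving out the array with the auxin label or each replicate. An actin covariate and leaving out the 4 arrays that stood apart were chosen after seeing the data.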

Additional observations from a re-analysis of the deposited data

Results flagged for a closer look

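The effect of ACC on NDB2 (AT4G05020), an alternative NAD(P)H dehydrogenase of mitochondria, differed between the 7 times after transfer (limma, moderated F test of the interaction, adjusted p = 0.0352). Its ACC minus control difference on the log2 scale was 0.23 at 0.5 h and -0.90, -1.01 and -0.67 at 8, 12 and 24 h.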

How the results depend on the processing

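AT4G21870 stayed higher on ACC at all 7 times after transfer, and AT5G51440 lower from 4 h to 24 h, in each of the 20 alternatives run at each time. Among these, the filter, the robust prior with an intensity trend, the replicate block and the fit per time cannot change a difference of group means. Nor can leaving out the auxin-labelled array at times other than 1 h. The directions themselves were the basis on which both genes were chosen. Across replicates left out, AT4G21870 ranged from 1.09 to 2.95 at 2 h, and AT5G51440 from -0.39 to 1.29 at 0 h and from -2.65 to -1.38 at 12 h. Without the 4 arrays that stood apart, AT4G21870 at 2 h was 2.86 and AT5G51440 at 0 h was -0.24. Probe sets called at 0, 0.5, 1, 2, 4, 8, 12 and 24 h numbered 0, 56, 63, 89, 951, 1113, 1234 and 1237. From 0.5 h they numbered 139, 293, 501, 1807, 3800, 3977 and 2356 with array weights, and 0, 5, 6, 229, 312, 321 and 344 with the 0 h difference subtracted. With the replicate block they numbered 119, 105 and 162 at 0.5, 1 and 2 h. Deviations of same-numbered arrays had a median r of 0.131 (from -0.265 to 0.410, 16 of 24 over 0.1) against -0.097 for other numbers (9 of 48 over 0.1). All 3 pairs were over 0.1 at 1, 2 and 8 h, 2 were at 4 and 12 h, and 1 was at 0, 0.5 and 24 h. The main fit did not pair the samples by number, and whether same-numbered arrays share a source was not tested. A fit per time gave 0, 16 and 0 at 0.5, 1 and 2 h, the GAPDH covariate 35, 22 and 776 at 0.5, 1 and 24 h, the actin covariate 98 and 103 at 0.5 and 1 h, and leaving out the auxin-labelled array 28 at 1 h. Without the arrays that stood apart they numbered 218, 602 and 1493 at 1, 2 and 4 h. Leaving out replicates gave 0 to 55 at 0.5 h, 3 to 41 at 1 h, 2 to 418 at 2 h, 52 to 801 at 4 h, 303 to 813 at 8 h, 227 to 1122 at 12 h and 203 to 872 at 24 h. Array weights called 1 other small heat shock protein gene higher and 2 lower, and 1 was lower with the replicate block, the actin covariate or a fit per time, or without the auxin-labelled array or the arrays that stood apart. For larger chaperones and co-factors 1 gene was higher with array weights or the block, or without the auxin-labelled array or those that stood apart (0 to 1 leaving out replicates), and 1 lower with weights or a fit per time. For mitochondrial chaperones 2 were lower with weights, and 1 with the block or actin covariate, or without the auxin-labelled array or those that stood apart (0 to 1 leaving out replicates). In the mitochondrial stress response 8 were lower with weights, the actin covariate or a fit per time, or without the arrays that stood apart, 3 with the 0 h difference subtracted, and 0 to 8 leaving out replicates. There 0 were higher with the 0 h difference subtracted or the GAPDH covariate, and 0 to 1 leaving out replicates. The cause of these shifts was not tested.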
